A study of Mus musculus with 10 samples.

Results

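The cytochrome P450 enzymes of families 1 to 4 were described in the livers of mice that lacked thyroid hormone receptor beta in the liver and of their wild-type littermates. Members were all genes whose mouse symbol starts with Cyp, a family digit from 1 to 4, a subfamily letter and a number. This rule took 110 of the 55401 genes in the count files, of which 80 were annotated as protein coding, 29 as pseudogenes and 1 (Cyp4x1os) as an antisense RNA. Of the 110 members, 50 passed the filter on low counts and were tested among 12234 genes, and 46 of these 50 code for proteins. The remaining 60 were too low to test, and 26 of them had no read in any library.

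Liver RNA from 10 C57Bl6/J mice on standard chow was sequenced, 1 library per mouse, from 5 WT mice and 5 mice labelled Liver-specificTHRBKO, which the study names Thrb hep-/- and which are called Thrb-KO here. The study gives the cross of the knockout as Thrb-loxP/loxP with Afp-Cre, in which the alpha-fetoprotein promoter drives the recombinase in cells of the liver lineage, so non-parenchymal cells may keep Thrb. The littermates' alleles at Thrb are given only as WT, and age, sex and time of collection are not given in the sources used here. Thrb itself was at 33.4, 34.2, 32.5, 33.5 and 32.9 normalized CPM (reads of a gene per 1000000 counted reads) in the WT mice and at 25.1, 24.9, 28.7, 25.9 and 28.8 in the Thrb-KO mice, with no overlap and a log2 fold change of -0.32 ± 0.067 (SE; edgeR adjusted p = 0.036). These are reads over the whole gene, so any exons outside the deleted part are counted in both genotypes. Single exons were not examined, and these counts do not by themselves show the deletion. Why Thrb reads remained in Thrb-KO livers was not tested.

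P450 enzymes are haem proteins of the endoplasmic reticulum that insert an oxygen atom into lipophilic molecules with electrons from P450 reductase. Families 1 to 3 act mainly on drugs, pollutants, steroids and polyunsaturated fatty acids, and family 4 hydroxylates fatty acids and eicosanoids at the end of the chain. In the liver their transcription is set by ligand-activated receptors (the aryl hydrocarbon receptor AhR for Cyp1a, the constitutive androstane receptor CAR and the pregnane X receptor PXR for Cyp2b, Cyp2c and Cyp3a, and PPAR alpha for Cyp4a), by liver-enriched factors such as HNF4 alpha, and by the sex-dependent pattern of growth hormone. Many members lie in clusters of near-identical copies, so reads of one gene can match another.

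The promoters of 6 members are shown because the results turn on these genes: 3 Cyp2c genes that rose, the related Cyp2c40 that did not pass the test, and 2 genes that fell without overlap between the genotypes. Each is the 250 bases before the RefSeq start in GRCm38.p6, 5′ to 3′ on the strand of the gene. Capitals mark matches on either strand, none of which overlap here. The nuclear receptor half-site AGGTCA is shared by many receptors, the thyroid hormone receptors among them. The second motif is an element bound by HNF4 alpha and reads CAAAGTCCA. The third is the TATA box, searched as TATAAA.
Cyp2c29 (chr19:39286835-39287084, plus strand): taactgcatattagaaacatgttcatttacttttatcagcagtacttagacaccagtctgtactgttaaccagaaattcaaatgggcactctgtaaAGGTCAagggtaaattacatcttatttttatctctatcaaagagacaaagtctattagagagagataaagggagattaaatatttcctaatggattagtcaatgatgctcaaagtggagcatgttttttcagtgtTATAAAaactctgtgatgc
Cyp2c67 (chr19:39649043-39649292, minus strand): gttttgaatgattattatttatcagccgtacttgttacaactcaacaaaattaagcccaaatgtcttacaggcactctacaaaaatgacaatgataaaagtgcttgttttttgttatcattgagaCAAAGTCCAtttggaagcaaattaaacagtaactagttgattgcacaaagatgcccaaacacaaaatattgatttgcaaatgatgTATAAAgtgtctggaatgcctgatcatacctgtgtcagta
Cyp2c68 (chr19:39741102-39741351, minus strand): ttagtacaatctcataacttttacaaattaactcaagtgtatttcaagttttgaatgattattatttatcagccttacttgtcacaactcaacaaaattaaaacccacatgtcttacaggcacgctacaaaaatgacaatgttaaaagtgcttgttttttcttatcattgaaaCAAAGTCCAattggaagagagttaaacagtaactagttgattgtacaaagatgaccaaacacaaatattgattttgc
Cyp2c40 (chr19:39812815-39813064, minus strand): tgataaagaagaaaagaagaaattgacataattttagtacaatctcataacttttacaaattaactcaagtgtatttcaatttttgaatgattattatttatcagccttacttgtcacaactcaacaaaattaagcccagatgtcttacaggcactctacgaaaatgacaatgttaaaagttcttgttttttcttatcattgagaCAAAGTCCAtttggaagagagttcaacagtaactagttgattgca
Cyp3a13 (chr5:137921620-137921869, minus strand): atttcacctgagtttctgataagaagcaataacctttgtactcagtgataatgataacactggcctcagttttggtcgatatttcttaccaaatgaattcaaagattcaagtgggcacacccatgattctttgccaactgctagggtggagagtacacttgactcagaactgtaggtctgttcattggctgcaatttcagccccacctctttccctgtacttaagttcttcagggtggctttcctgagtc
Cyp4f16 (chr17:32536307-32536556, plus strand): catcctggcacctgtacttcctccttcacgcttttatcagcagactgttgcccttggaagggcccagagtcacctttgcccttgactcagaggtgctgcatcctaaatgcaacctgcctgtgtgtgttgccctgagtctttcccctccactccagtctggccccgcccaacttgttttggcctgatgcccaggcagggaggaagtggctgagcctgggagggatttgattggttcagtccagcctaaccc

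RefSeq held promoter windows for 66 of the 110 members, 36 of the 50 tested and 6 of the 7 called members (Cyp4a12b had none), and the window of Cyp2d40 is not shown. RefSeq starts differ from the GENCODE gene ends, so that 61 bases of the Cyp2d40 window, 30 of that of Cyp2c69 and 9 of that of Cyp2c67 lie within the gene, and that of Cyp2c29 lies within its gene span whole. The windows of Cyp2c68, Cyp2c40, Cyp3a13 and Cyp4f16 lie outside it. The HNF4 element CAAAGTCCA occurred in 10 of 73 member windows (13.7%) and in 0.384% of the 32851 windows of all genes. Its carriers were Cyp2c40, Cyp2c65, Cyp2c67, Cyp2c68, Cyp2c69, Cyp2c70, Cyp3a11, Cyp3a16, Cyp3a41a and Cyp3a41b, and windows of neighbouring gene copies are not independent of each other. Of these 10 genes, 6 were tested, Cyp2c67 and Cyp2c68 were higher past the threshold, and the log2 fold changes ran from -1.21 to 0.68. The windows of Cyp2c67 and Cyp2c40 were identical at 92.9% of the 170 aligned positions. TATAAA stood in 35.6% of member windows and 12.4% of all windows, AGGTCA in 23.3% and 14.0%, and the STAT5 element TTCNNNGAA in 5.48% and 7.02%. A direct repeat of AGGTCA spaced by 4 bases, the arrangement that thyroid hormone receptors prefer, stood in 0 of the 73 member windows and in 5 of all 32851 windows (0.0152%). An exact match is so rare that its absence from the member windows says nothing about them. These matches describe letters in a short window and not binding.

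Of the 50 tested members, 7 passed an adjusted p of 0.15 (14.0%), against 4.08% of all genes tested (edgeR quasi-likelihood test over all genes, with 5 WT and 5 Thrb-KO mice). Those higher in Thrb-KO livers were Cyp2c29, Cyp2c67, Cyp2c68 and Cyp4a12b (8.0% of members, against 1.51% of all genes), and those lower were Cyp3a13, Cyp2d40 and Cyp4f16 (6.0%, against 2.57%). At an adjusted p of 0.05 there were 3 (6.0%, against 1.35%), namely Cyp2c68, Cyp3a13 and Cyp4f16. The values of the genotypes did not overlap for 6 members (12.0%, against 3.64% of all genes), which are the 7 called genes without Cyp2d40. In whole liver, fewer hepatocytes and less RNA of a gene per hepatocyte cannot be told apart.

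**Figure D1:**
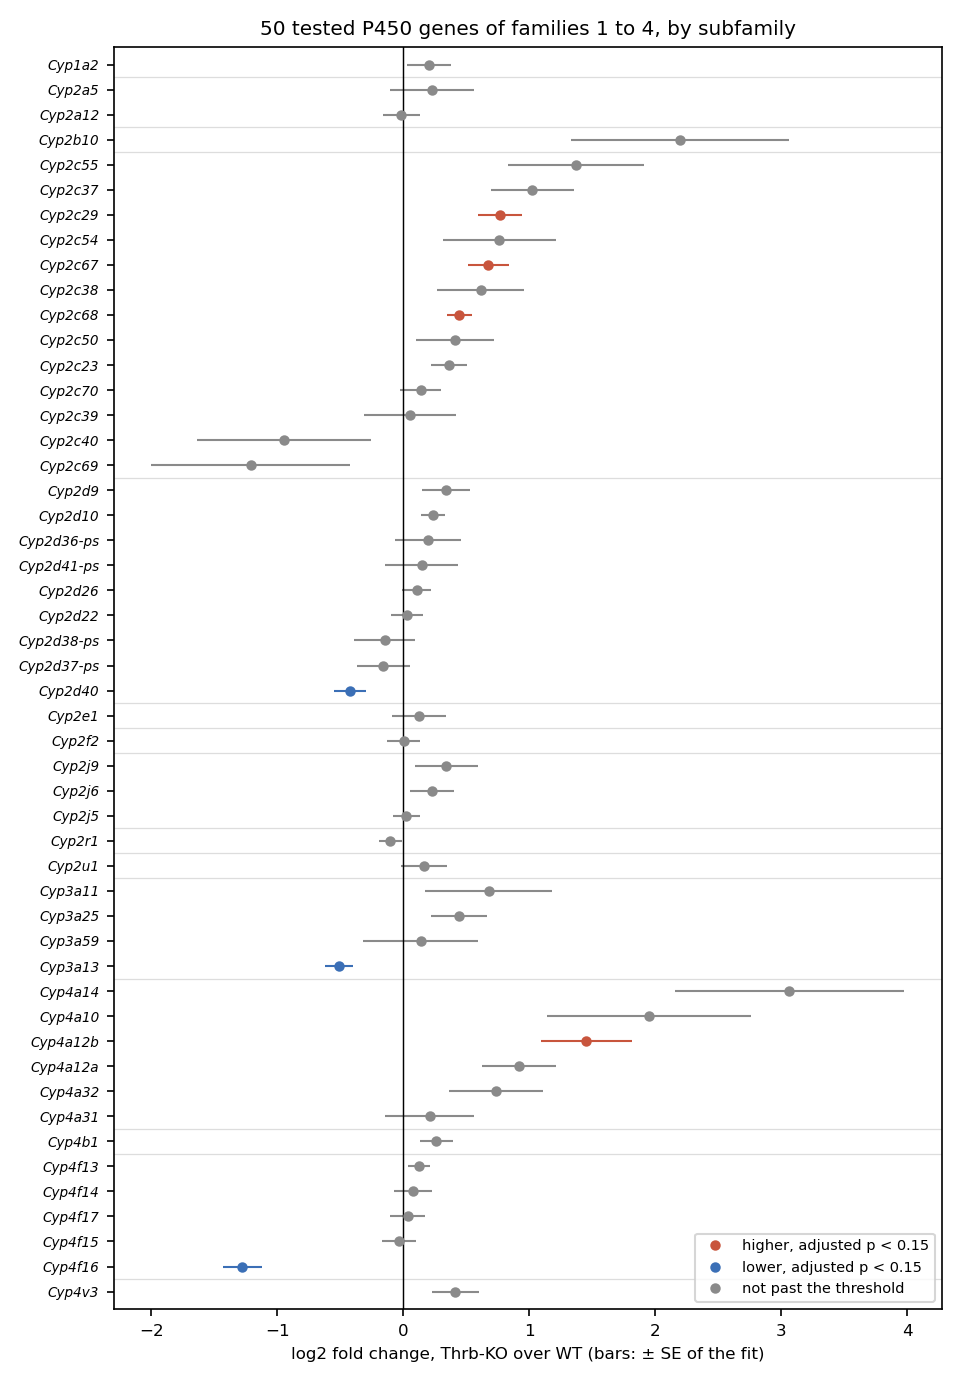
Log2 fold changes of the 50 tested members between Thrb-KO and WT livers with the SE of the fit, grouped by subfamily (horizontal lines part the subfamilies). Red and blue points passed an adjusted p of 0.15 and grey points did not; the 4 red genes lie in Cyp2c and Cyp4a, and points far to the right such as Cyp4a14 at 3.06 have wide bars.

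The log2 fold change was above 0 for 40 of the 50 tested members and below 0 for 10, with a median of 0.21 against 0.00054 over all genes tested. An unadjusted p under 0.05 was reached by 13 members in the higher direction (26%, against 6.15% of all genes) and by 3 in the lower direction (6.0%, against 7.41%). The 9 of these 13 that missed the adjusted threshold were Cyp2b10, Cyp2c23, Cyp2c37, Cyp2c55, Cyp2d10, Cyp4a10, Cyp4a12a, Cyp4a14 and Cyp4v3, named for this reason after their values were seen. Of the members, 25 of 50 lay within 0.3 of 0 on the log2 scale, the most abundant gene Cyp2e1 among them. A change of 1 or more on the log2 scale, in either direction, was fitted for 8 members, of which 6 did not pass the threshold.

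The summed level of all 110 members was 17479.7 ± 3374 normalized CPM in WT livers (SD, n = 5) and 20908 ± 1867 in Thrb-KO livers (n = 5), with ranges of 13258 to 21461 and 19009 to 23904 that overlap. By family, the sums of Cyp1 were 495 ± 112 and 569.9 ± 115, those of Cyp2 14147 ± 2779 and 16391 ± 2728, and those of Cyp3 1734 ± 437 and 2406 ± 1143, each with overlap between the genotypes. The Cyp4 sums did not overlap, at 1132, 879, 1185, 1355 and 970.0 in the WT mice and 1469.6, 1588, 1424, 1612 and 1613 in the Thrb-KO mice. Sums of 2 larger subfamilies did not overlap, those of Cyp2c at 2225 to 3514 in WT and 3587 to 5318 in Thrb-KO livers, and those of Cyp4a at 144 to 408 and 474 to 787. Both include called genes that were free of overlap by themselves, Cyp2c29, Cyp2c67 and Cyp2c68 in Cyp2c and Cyp4a12b in Cyp4a. The Cyp4 sum includes Cyp4a12b as well. Sums without the called genes were not formed, so how far these genes set the sums apart was not tested. A sum does not show a shift of every gene in it. The Cyp2d sums, at 2338 to 3567 and 2956 to 3904, and the Cyp4f sums, at 497 to 677 and 469 to 744, overlapped. Sums carry no test here.

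Libraries were alike in depth, with 26477195 to 28590704 counts each, so that 3 counts equal 0.0993 to 0.117 normalized CPM. Defining genes of hepatocytes (6 of 6 tested, none called) had summed levels of 84067 to 124781 CPM in WT and 97004 to 109757 in Thrb-KO livers. Y-linked genes were present in all 10 libraries with Xist at no more than 5 counts, as in male mice. The 16 acute-phase genes all had negative fold changes, 12 of them past the threshold, and their mean log2(CPM + 1) was 9.55 to 11.4 in WT and 8.23 to 9.30 in Thrb-KO livers. Since these ranges do not overlap, acute-phase state and genotype cannot be told apart for any member. WT replicate 2 had the highest acute-phase level and the lowest summed P450 level of the 10 mice. Thrb-KO replicate 2 went the other way, with the highest acute-phase level of its genotype (9.30) and the highest summed P450 level of the 10 mice (23904 CPM). A link between the 2 levels was not tested. Thrb-KO replicates 1, 4 and 5 had 1023, 262 and 147 counts of the adrenal gene Cyp11a1, against 0 or 1 in the other 7 libraries, and all had reads of Star, Cyp11b1 and Hsd3b1 as well. Without these 3 libraries, a fit of 5 WT and 2 Thrb-KO mice chosen after this was seen, 3 of 49 members were called (6.12%, against 1.45% of all genes): Cyp2c68, Cyp4f16 and, newly, Cyp2c38. The fold changes of the 7 called genes kept their directions there (Cyp2c29 0.89, Cyp2c67 0.56, Cyp2c68 0.61, Cyp4a12b 1.37, Cyp3a13 -0.43, Cyp2d40 -0.38 and Cyp4f16 -1.20 on the log2 scale).

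**Figure D2:**
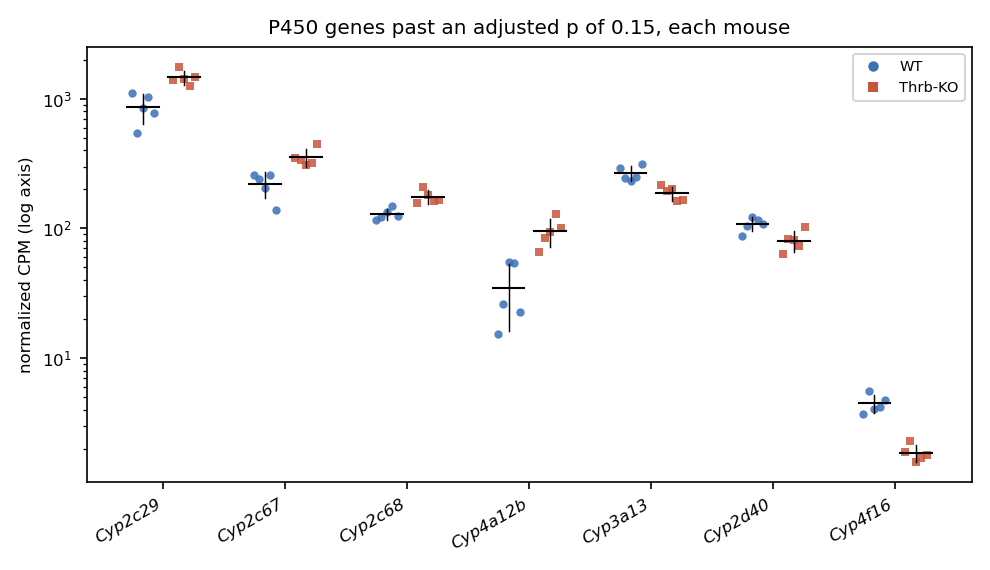
Normalized CPM on a log axis of the 7 members past an adjusted p of 0.15, 1 point per mouse, with the mean and SD of 5 mice per genotype. The genotypes are apart for every gene but Cyp2d40, whose highest Thrb-KO mouse at 101.7 lies above the lowest WT mouse at 88.1.

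The Cyp2c genes encode epoxygenases and hydroxylases of arachidonic and linoleic acid, steroids and drugs, and they form a run on chromosome 19 from Cyp2c52-ps (start 38976647) to Cyp2c70 (end 40187333), with Cyp2c23 (chr19:44005022-44029208) and the pseudogene Cyp2c73-ps (chromosome 14) apart from it. Of the 18 Cyp2c members, 13 were tested, 3 rose and none fell with edgeR, and the median log2 fold change was 0.44. Cyp2c29 (ENSMUSG00000003053, chr19:39269405-39330713, plus strand), an arachidonic acid epoxygenase that CAR activators induce, was at 1100.5, 541, 847, 1035 and 784 normalized CPM in the WT mice and at 1409, 1769, 1415, 1259 and 1475 in the Thrb-KO mice. Every Thrb-KO mouse was above every WT mouse, and the means were 861 ± 221 and 1465 ± 188 (SD, n = 5 each). The log2 fold change was 0.77 ± 0.17 (SE; edgeR adjusted p = 0.054), or 1.70-fold. Per kb of exon Cyp2c29 moved from the seventh to the fourth place among the members, at 281 ± 72.3 and 479 ± 61.3 CPM per kb.

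Cyp2c67 (ENSMUSG00000062624, chr19:39608842-39649051, minus strand) was at 261, 241, 207, 259.6 and 139.9 normalized CPM in the WT mice and at 349.8, 339.9, 310.1, 321 and 447 in the Thrb-KO mice, without overlap. It rose by 0.67 ± 0.16 on the log2 scale (edgeR adjusted p = 0.070). Its neighbour Cyp2c68 (ENSMUSG00000074882, chr19:39688834-39741054, minus strand) was at 117, 122, 133, 148 and 124 in the WT mice and at 157, 211, 182, 162 and 165 in the Thrb-KO mice. The genotypes were apart here too, with the smallest spread of the 3 genes and a log2 fold change of 0.44 ± 0.10 (edgeR adjusted p = 0.049). Cyp2c68 passed 0.15 in all 18 alternative analyses, Cyp2c29 in 17 and Cyp2c67 in 16. Of the exonic 100-base windows of Cyp2c67 and Cyp2c68, 23.7% and 19.8% also occur in another gene. Reads that lie wholly in such stretches may have gone uncounted, which was not examined.

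**Figure D3:**
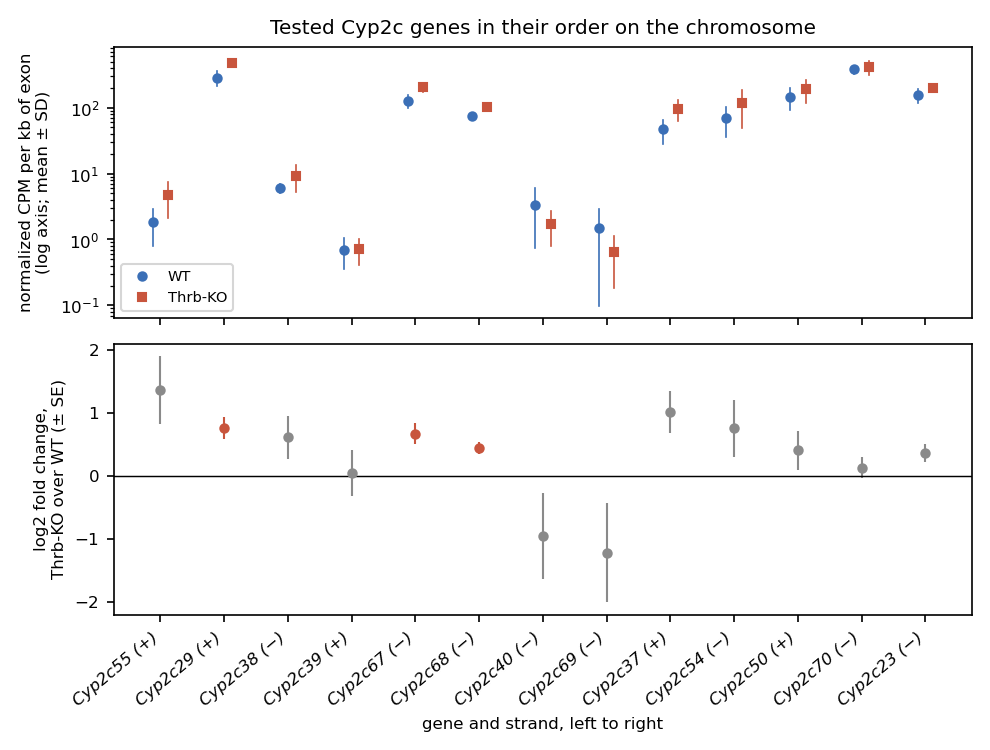
The 13 tested Cyp2c genes in their order on chromosome 19, with the level per kb of exon in each genotype above (log axis, mean and SD of 5 mice, upper bar only where the SD exceeds the mean) and the log2 fold change with its SE below. The 3 called genes (red) include the neighbours Cyp2c67 and Cyp2c68, next to Cyp2c40 and Cyp2c69 at -0.95 and -1.21.

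The next genes of the run, Cyp2c40 and Cyp2c69, belong to the female-biased P450s and were low and scattered. Cyp2c40 was at 0.454, 4.82, 12.5, 12.2 and 4.19 CPM in the WT mice and at 3.93, 4.24, 1.89, 1.49 and 6.22 in the Thrb-KO mice, and Cyp2c69 at 0.189 to 5.39 and 0.377 to 2.29. Their log2 fold changes of -0.95 ± 0.69 and -1.21 ± 0.79 were far from the threshold (edgeR adjusted p = 0.60 and 0.56), and within the WT group alone the highest mouse was 27.5 times and 28.5 times the lowest. The genes beyond them were higher in the mean without passing the test. Cyp2c37 was at 111, 36.4, 74.8, 123 and 83.9 in the WT mice and at 213, 258, 159, 123 and 119 in the Thrb-KO mice (log2 fold change 1.02 ± 0.33, edgeR adjusted p = 0.20). Cyp2c54 had 0.76 ± 0.45 and Cyp2c50 0.41 ± 0.31, with Thrb-KO replicate 2 the highest mouse for all 3 genes. Cyp2c70, which makes the muricholic acids of mouse bile, was at 751 ± 111 and 825 ± 197 CPM (0.14 ± 0.16). Cyp2c23, an epoxygenase, ranged from 249 to 443 in WT and only from 423 to 452 in Thrb-KO livers (0.36 ± 0.14, edgeR adjusted p = 0.29).

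The Cyp2d genes, relatives of human CYP2D6, lie on chromosome 15, and 9 of 18 members were tested, of which Cyp2d40 fell and none rose with edgeR, while DESeq2 also called Cyp2d10 (log2 fold change 0.24 ± 0.10 in edgeR, adjusted p = 0.32). Cyp2d40 (ENSMUSG00000068083, chr15:82759833-82764183, minus strand) was at 88.1, 104, 123, 116 and 109 CPM in the WT mice and at 63.0, 83.5, 81.8, 73.3 and 101.7 in the Thrb-KO mice, which overlap. Its log2 fold change was -0.42 ± 0.12 (edgeR adjusted p = 0.135), and the call was the least stable of the 7, being lost when any 1 mouse other than WT replicate 1 or Thrb-KO replicate 5 was left out. Cyp2d9, a male-specific steroid 16 alpha-hydroxylase, was at 969.6 ± 286 and 1226 ± 217 (0.34 ± 0.19), and Cyp2d26, the most abundant of the subfamily per kb of exon, at 861 ± 103 and 926 ± 113 (0.10 ± 0.12). The 4 tested pseudogenes are all of this subfamily (Cyp2d36-ps, Cyp2d37-ps, Cyp2d38-ps and Cyp2d41-ps), with log2 fold changes from -0.16 to 0.20. Per kb of exon, the pseudogene Cyp2d37-ps was at 58.3 ± 15.9 CPM per kb in WT livers and the coding gene Cyp2d40 at 59.9 ± 7.41, within each other's spread.

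Among the other Cyp2 subfamilies, none of the tested genes passed the threshold with edgeR. Cyp2b10, which had the second largest fold change of the members from very few reads, is described with the receptor targets. Cyp2e1, which oxidises ethanol and paracetamol, was the highest member per kb of exon in both genotypes and made up 33.8% of the summed WT level per kb over the 50 tested members. It was at 7043, 3812, 4826, 6928 and 5110.4 CPM in the WT mice and at 6566, 8530.3, 4489.9, 4473 and 6085 in the Thrb-KO mice (log2 fold change 0.12 ± 0.21, edgeR adjusted p = 0.87). The genotypes overlapped over most of their ranges, and the sign turned to -0.032 without Thrb-KO replicate 2. Cyp2f2, which oxidises naphthalene, had 0.0038 ± 0.13, the epoxygenase Cyp2j5 0.023 ± 0.11, the coumarin 7-hydroxylase Cyp2a5 0.23 ± 0.33, the vitamin D 25-hydroxylase Cyp2r1 -0.10 ± 0.094 and the fatty acid hydroxylase Cyp2u1 0.16 ± 0.18 on the log2 scale. None of these passed the threshold. Cyp2r1 was even between mice, at 12.5 to 15.7 CPM in WT and 11.3 to 14.4 in Thrb-KO livers.

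In family 3, the Cyp3a genes on chromosome 5 oxidise steroids, bile acids and many drugs. Of 11 members 4 were tested, and Cyp3a13 fell while the other 3 had positive fold changes short of the threshold. Cyp3a13 (ENSMUSG00000029727, chr5:137892932-137921619, minus strand) was at 294, 244, 232, 249 and 313 CPM in the WT mice and at 216, 193, 199.9, 162 and 166 in the Thrb-KO mice. The genotypes were apart, with a log2 fold change of -0.51 ± 0.11 (edgeR adjusted p = 0.048), or 0.703-fold. No 100-base window of its exons occurs in another gene.

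Cyp3a11, the main testosterone 6 beta-hydroxylase of mouse liver and a PXR target, went the other way in the mean with a wide spread. It was at 1303, 879, 893, 1379.6 and 407 CPM in the WT mice and at 1124, 355, 1969.7, 2935 and 1385 in the Thrb-KO mice (log2 fold change 0.68 ± 0.50, edgeR adjusted p = 0.61). Thrb-KO replicate 2 was the lowest of all 10 mice for Cyp3a11, for Cyp3a25 (326, against 389 to 949.9 in the other 9) and for Cyp3a59 (6.34, against 19.7 to 52.3). The same mouse was the highest of the 10 for Cyp2e1, Cyp2c29, Cyp2c50, Cyp2c54 and Cyp2b10. The mean of Cyp3a11 therefore joins mice that differ 8.27 times within the Thrb-KO group.

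In family 4, the Cyp4a genes on chromosome 4 are fatty acid omega-hydroxylases, and all 6 tested of 11 members had positive log2 fold changes, with a median of 1.18 and 1 past the threshold. Cyp4a12b (ENSMUSG00000078597, chr4:115411624-115439034, plus strand), a male-biased enzyme whose product from arachidonic acid is 20-HETE, was at 15.4, 26.3, 55.3, 54.1 and 22.7 CPM in the WT mice and at 66.2, 84.9, 93.7, 130.0 and 101 in the Thrb-KO mice. Each Thrb-KO mouse was above each WT mouse, with a log2 fold change of 1.45 ± 0.36 (edgeR adjusted p = 0.089), or 2.74-fold. Its near copy Cyp4a12a was at 92.1, 143, 196, 237 and 108 in the WT mice and at 276, 195, 224, 419 and 351 in the Thrb-KO mice, which overlap (0.92 ± 0.29, edgeR adjusted p = 0.19). Of the exonic 100-base windows, 36.2% of Cyp4a12b and 35.8% of Cyp4a12a are shared with another gene. Reads that lie wholly in such stretches may have gone uncounted, which was not examined. The sum of both, 107 to 291 in WT and 279 to 549 in Thrb-KO livers, overlapped in 1 mouse of each genotype, and Cyp4a12b made up 17.6 ± 2.96% of it in WT and 25.0 ± 4.73% in Thrb-KO livers (SD, n = 5 each). The Cyp4a12b call held in 11 of 18 alternative analyses and was lost without WT replicate 2 or 5, or Thrb-KO replicate 3, 4 or 5.

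The largest fold change of any tested member was that of Cyp4a14, a PPAR alpha target. It was at 5.45, 3.85, 14.8, 16.0 and 1.16 CPM in the WT mice and at 55.2, 29.3, 122, 134 and 4.60 in the Thrb-KO mice. The 4 Thrb-KO mice other than replicate 5 were above all WT mice, whereas replicate 5 was within their range. The log2 fold change of 3.06 ± 0.91 stayed short of the threshold (edgeR adjusted p = 0.17), and passed it in 4 of 18 alternative analyses, among them DESeq2 and the fit without Thrb-KO replicate 5. Cyp4a14 also had the largest spread between mice of 1 genotype, with the highest Thrb-KO mouse 29.1 times the lowest. Cyp4a10 was at 9.08, 3.04, 29.0, 60.1 and 5.84 in the WT mice and at 99.2, 139, 73.9, 82.2 and 18.0 in the Thrb-KO mice (1.95 ± 0.81, edgeR adjusted p = 0.33), again with replicate 5 the lowest of its genotype.

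Cyp4f16 (ENSMUSG00000048440, chr17:32536558-32551798, plus strand) belongs to the Cyp4f group, whose enzymes oxidise leukotrienes and long-chain fatty acids. It was at 3.71, 5.56, 4.04, 4.22 and 4.75 CPM in the WT mice and at 1.88, 2.29, 1.58, 1.69 and 1.77 in the Thrb-KO mice. No mouse of one genotype entered the range of the other, and the log2 fold change of -1.28 ± 0.16 had the smallest p of any member (edgeR adjusted p = 0.0019). The call held in all 18 alternative analyses, with log2 fold changes from -1.36 to -1.18. Per kb of exon it was a minor P450, at 1.45 ± 0.236 CPM per kb in WT livers, far below its relatives Cyp4f14 (136 ± 19.1), a leukotriene B4 omega-hydroxylase, and Cyp4f15 (73.4 ± 6.94). The other 4 tested Cyp4f genes had log2 fold changes from -0.034 to 0.12. Cyp4v3 had 0.41 ± 0.19 and Cyp4b1 0.26 ± 0.13, both short of the threshold.

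**Figure D4:**
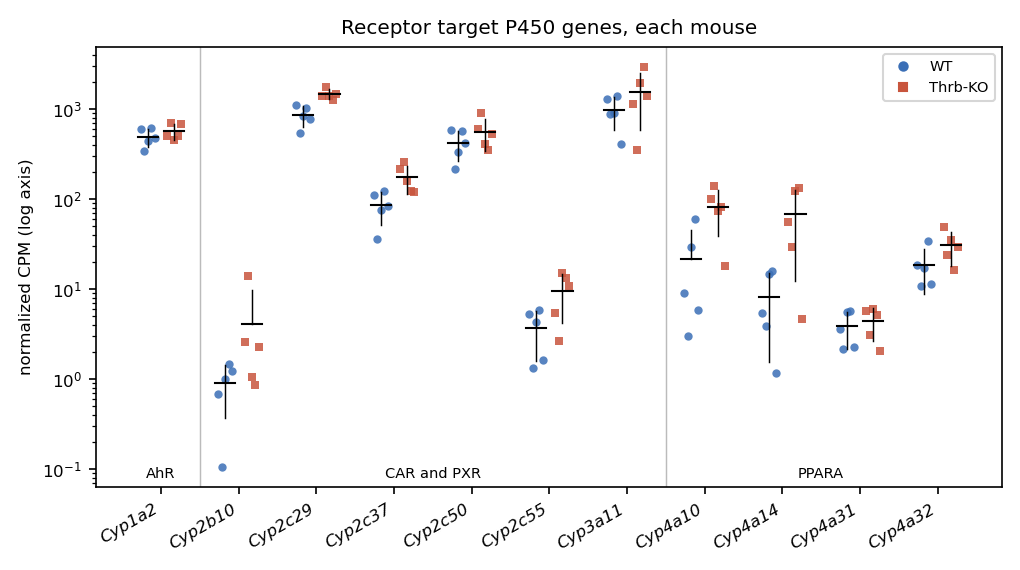
Normalized CPM on a log axis of the tested target genes of AhR, of CAR and PXR, and of PPAR alpha, 1 point per mouse, with means and SD of 5 mice (upper bar only where the SD exceeds the mean). All 6 CAR and PXR targets and all 4 PPAR alpha targets have higher Thrb-KO means, and Cyp2c29 alone is free of overlap. Of all 50 tested members, 40 had positive fold changes.

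Grouped by the receptor that controls them, the 6 CAR and PXR targets (Cyp2b10, Cyp2c29, Cyp2c37, Cyp2c50, Cyp2c55 and Cyp3a11) were all tested and all had positive fold changes, with a median of 0.89 on the log2 scale and 1 gene, Cyp2c29, past the threshold with edgeR. Cyp2c37 passed it as well with DESeq2 and without robust settings, with adjusted p from 0.015 to 0.401 over its 18 alternatives. Of all 50 tested members, 40 had positive fold changes, so a shared positive sign is not particular to the receptor lists. The CAR and PXR list does not hold Cyp3a13, Cyp2c40 and Cyp2c69 of the same subfamilies, with negative fold changes of -0.51, -0.95 and -1.21. The summed level of the 6 CAR and PXR targets was 3102, 1674, 2151, 3108 and 1693 CPM in the WT mice and 3354, 3299, 3969.9, 4686 and 3523 in the Thrb-KO mice, which do not overlap. This sum includes Cyp2c29, which was free of overlap by itself, so it is no separate result on the other targets. Cyp2b10, the classical CAR target, was near the limit of detection at 0.105 to 1.48 in WT livers and at 2.57, 13.9, 1.06, 0.861 and 2.26 in the Thrb-KO mice, so that 1 mouse carried its log2 fold change of 2.19 ± 0.87 (edgeR adjusted p = 0.31). Without that mouse it was 0.91. Cyp2c55 was at 1.33 to 5.86 in WT and 2.62 to 15.0 in Thrb-KO livers (1.37 ± 0.54, edgeR adjusted p = 0.31). The 4 PPAR alpha targets (Cyp4a10, Cyp4a14, Cyp4a31 and Cyp4a32) also all had positive fold changes with a median of 1.34 and none past the threshold, although 2 (Cyp4a10 and Cyp4a14) had an unadjusted p under 0.05 and DESeq2 called 1 (Cyp4a14) and limma-voom none. Their sum was 36.6, 19.8, 66.3, 116 and 20.6 in the WT mice and 209, 195, 236, 238 and 54.1 in the Thrb-KO mice. Of the 3 AhR targets only Cyp1a2, which oxidises caffeine, was tested, at 494 ± 112 and 568 ± 115 (0.20 ± 0.17, edgeR adjusted p = 0.67).

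Of 3 male-biased P450s, Cyp4a12b rose with edgeR, and Cyp4a12a and Cyp2d9 had positive fold changes short of the threshold. Cyp4a12a passed it in 5 of 18 alternative analyses, with DESeq2, with limma-voom, without robust settings, without WT replicate 4 and without Thrb-KO replicate 2, with adjusted p from 0.018 to 0.647 over all 18. Of 10 female-biased P450s 3 were tested, Cyp2b10 with a positive and Cyp2c40 and Cyp2c69 with negative fold changes, none past the threshold in edgeR, DESeq2 or limma-voom and 1 (Cyp2b10) with an unadjusted p under 0.05. Their summed level was 2.08 to 19.8 CPM in WT and 4.15 to 21.5 in Thrb-KO livers. Cyp3a41a and Cyp3a41b, female-specific in adult liver, had no read in any library. Cyp2b9, another female-biased gene, was too low to test, with 0, 0, 1, 0 and 1 reads in the WT mice and 23, 12, 4, 2 and 0 in the Thrb-KO mice.

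**Figure D5:**
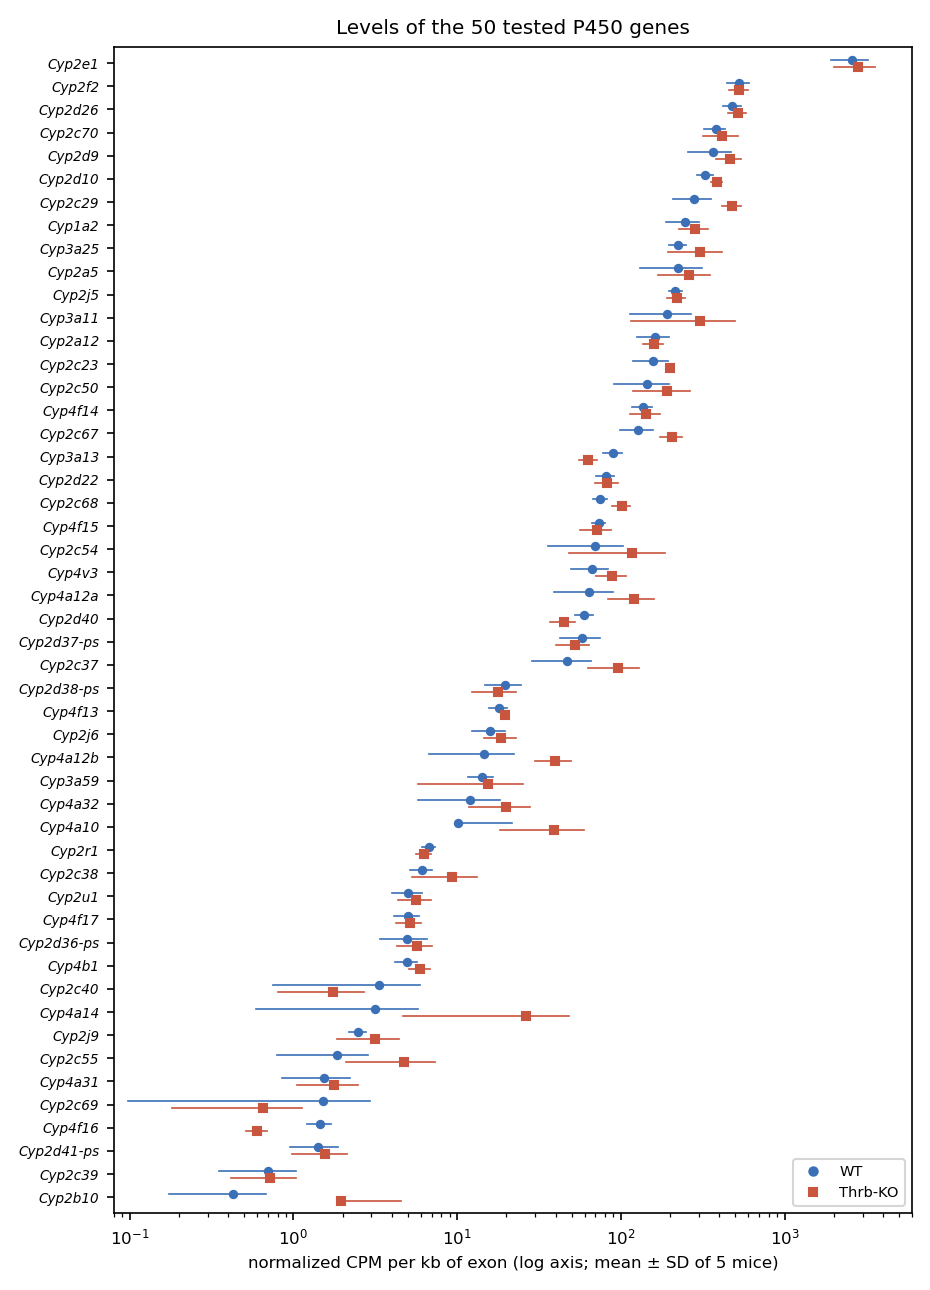
Levels of the 50 tested members in normalized CPM per kb of exon on a log axis, ordered by the WT mean, with the mean and SD of 5 mice per genotype (upper bar only where the SD exceeds the mean). Cyp2e1 stands alone at the top at 2569 CPM per kb in WT livers, and the order of the 3 highest genes is the same in Thrb-KO livers.

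Ordered by the WT level per kb of exon, Cyp2e1 (2569 ± 649.9 CPM per kb) was followed by Cyp2f2 (528 ± 80.5), Cyp2d26 (481 ± 57.3), Cyp2c70 (379 ± 56.2) and Cyp2d9 (365 ± 108). Of these neighbours, Cyp2f2 and Cyp2d26, and likewise Cyp2c70 and Cyp2d9, differed by less than their SD, whereas Cyp2d26 and Cyp2c70 differed by more than the SD of either. The lowest tested members were Cyp2c39 (0.695 ± 0.343) and Cyp2b10 (0.427 ± 0.253). Members differed widely in how even they were between mice of 1 genotype. The SD of log2 CPM within genotypes was 1.78 for Cyp4a14, 1.63 for Cyp2c69, 1.57 for Cyp2b10, 1.51 for Cyp2c40 and 1.47 for Cyp4a10, which were the 5 least even members. It was 0.13 for Cyp4f13, the most even, and 0.14 for Cyp2d10 and Cyp2r1. Among the 60 untested members the highest count in any library was 54, for Cyp2g1, and 34 of the 60 had at least 1 read.

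The genes that serve or regulate the P450s gave no call with edgeR, and an unadjusted p under 0.05 was reached by 1 of 5 redox partners (Cyb5b), 0 of 9 haem genes and 2 of 17 regulators (Ahr and Ppara). Of these, DESeq2 and limma-voom each called Cyb5b and Ahr at an adjusted p of 0.15 and no haem gene. Among the redox partners, P450 reductase (Por) was at 469.8 ± 131 and 479 ± 59.5 CPM (0.029 ± 0.17 on the log2 scale), and all 5 lay between -0.024 and 0.33. All 9 haem synthesis and breakdown genes lay between -0.25 and 0.097. Of 17 regulators 13 had positive and 4 negative fold changes, and none passed the threshold at a lowest adjusted p of 0.21 for Ahr (-0.35 ± 0.12). The receptors Nr1i3 (CAR, 0.49 ± 0.29), Nr1i2 (PXR, 0.19 ± 0.14), Ppara (0.20 ± 0.090) and Hnf4a (0.052 ± 0.12) had positive fold changes short of it. Nr1i3 was at 11.01 to 24.9 in WT livers and at 28.2, 44.5, 18.3, 18.2 and 19.1 in the Thrb-KO mice, with replicate 2 the highest. Among markers of other liver regions and cells, edgeR called 0 of 6 tested pericentral genes and 1 of 8 periportal genes (Cdh1, lower). It also called 1 of 5 stellate cell genes (Des, higher) and 1 of 2 tested leukocyte genes (S100a8, lower). None of 5 Kupffer cell, 5 endothelial, 3 tested cholangiocyte or 4 red blood cell genes was called. Over all genes tested the share called was 4.08%, and these short lists were not tested against it. Fold changes were one-sided in several of these lists, negative for all 5 Kupffer cell genes (median -0.68 on the log2 scale), all 4 red blood cell genes (median -0.69), the 3 cholangiocyte genes (median -0.42) and both leukocyte genes (median -1.61), and positive for all 5 stellate cell genes (median 0.29). No pericentral gene had an unadjusted p under 0.05 or a call with DESeq2 or limma-voom, and the summed level of 5 Kupffer cell genes was 95.5 to 328 in WT and 110.4 to 225 in Thrb-KO livers. Their part in the P450 results was not tested.

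The remaining P450 families make bile acids, steroid hormones and retinoid and vitamin D metabolites. Of their 19 genes 12 were tested and 2 passed the threshold (16.7% of those tested, against 4.08% of all genes). Cyp46a1, the cholesterol 24-hydroxylase, rose from 1.55 ± 0.424 to 3.40 ± 1.08 CPM (1.13 ± 0.26, edgeR adjusted p = 0.053). Cyp17a1, the steroid 17 alpha-hydroxylase, fell without overlap and was at 23.7, 28.2, 26.6, 18.6 and 157 in the WT mice and at 8.34, 11.9, 12.5, 6.32 and 6.90 in the Thrb-KO mice (-2.47 ± 0.64, edgeR adjusted p = 0.109). WT replicate 5 was far above the other WT mice, and without it the log2 fold change was -1.40 (edgeR adjusted p = 0.018). The Cyp17a1 call held in 7 of the 17 alternatives that gave an adjusted p, which ranged from 0.018 to 0.498. It was lost without a filter, with the replicate block, with limma-voom, without WT replicate 2, without any 1 of the 5 Thrb-KO mice and without the 3 libraries with adrenal transcripts. The bile acid enzymes Cyp7a1 (-0.22 ± 0.42), Cyp8b1 (0.28 ± 0.31) and Cyp27a1 (0.083 ± 0.097) did not pass.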

How the data were processed

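Liver RNA of 10 mice (5 WT, 5 Thrb-KO) was sequenced by the authors on DNBSEQ from stranded mRNA libraries. Per the study's methods, reads were aligned with HISAT2 2.2.1 to GRCm38 (mm10) and counted with HTSeq 0.9.1 over Ensembl release 102 exons without regard to strand, at a minimum alignment quality of 10, and reads that matched several places or genes were left out. The deposited values used here are these raw counts per gene, 1 file per mouse. A deposited table of the authors' own edgeR 3.36.0 comparison (fold change, mean level, F, p and false discovery rate per gene) was not used.

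Counts were tested with edgeR 4.0.16 in R 4.3.3 (TMM normalization, genes at 1 CPM or more in at least 5 libraries, robust quasi-likelihood F test, Benjamini-Hochberg adjustment over all 12234 genes), at an adjusted p of 0.15, the study's threshold, and of 0.05. P-values set the difference between genotypes against the spread between these mice within genotypes, which is estimated partly from all genes. Normalized CPM are counts scaled to a TMM-adjusted library size of 1000000. Errors beside fold changes are SE and beside means SD. Levels per kb use the exon length of GENCODE M21 (GRCm38). Shared windows are stretches of 100 exonic bases that occur in the exons of another gene. Of the gene IDs, 260 had no symbol. Promoters are from RefSeq (GRCm38.p6). The fit was tested on simulated data.

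Genes named singly were the members past the threshold or without overlap, the highest member of each subfamily per kb, tested members of the receptor-target and sex-biased lists, and called genes of the lists of partners, regulators and other P450 families; others were chosen after their values were seen. Members and lists were chosen with earlier results of these data known. Alternatives were RLE scaling, other filters, no robust settings, a replicate block, DESeq2 1.42.0, limma-voom (limma 3.58.1), leaving out each mouse and, added after seeing the data, leaving out 3 libraries with adrenal transcripts. Depth limits precision through counting error only, at 26477195 to 28590704 counts per library.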

Additional observations from a re-analysis of the deposited data

Results flagged for a closer look

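In 2 of the 80 groups of 5 mice checked, 1 mouse lay far from the other 4. The measure was the gap to the nearest mouse over the whole range, at 0.93 for Cyp17a1 and 0.87 for Cyp2b10. A rate of 1 in 20, or 4 groups, holds for independent groups of normally spread values. Whether these groups are such was not checked. Cyp17a1 was at 157 normalized CPM in WT replicate 5 and at 18.6 to 28.2 in the other 4 WT mice. Cyp2b10 was at 13.9 normalized CPM in Thrb-KO replicate 2 and at 0.861 to 2.57 in the other 4 Thrb-KO mice.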

How the results depend on the processing

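The 7 called members kept their direction in all 18 alternatives, and Cyp2c68 and Cyp4f16 stayed past an adjusted p of 0.15 in each. The count of 7 became 11 with DESeq2, 3 without the 3 libraries with adrenal transcripts, and 5 to 9 when 1 mouse was left out. The 4 higher genes became 7 without robust settings, 8 with DESeq2, 2 without the 3 libraries and 3 to 7 without 1 mouse. The 3 lower genes became 1 without the 3 libraries and were 2 or 3 without 1 mouse. The 3 genes past 0.05 became 9 with DESeq2, 5 with limma-voom, 0 without the 3 libraries and 1 to 3 without 1 mouse. Shares of all genes by direction and at 0.05 are not given for the alternatives, so these counts are not results on the members. The 6 genes without overlap became 12 without the 3 libraries (17.4% of all genes), where fewer mice are compared, and Thrb was at -0.30 (edgeR adjusted p = 0.24). Over all genes, the 499 calls became 885 with DESeq2, 849 with limma-voom and 222 to 665 without 1 mouse. The causes of these changes were not tested.

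Among 36 named genes, 588 values kept their direction and side of the threshold, 31 lost and 14 gained the call, and 13 changed sign, all of genes near 0. These were Cyp2e1 without Thrb-KO replicate 2 (-0.032), Cyp2f2 without a filter (-0.0020), without WT replicate 2 (-0.068) or 5 (-0.022), without Thrb-KO replicate 4 (-0.067) or 5 (-0.027) and without the 3 libraries (-0.12), Cyp2j5 with limma-voom (-0.020) and without WT replicate 3 (-0.0081) or Thrb-KO replicate 2 (-0.029) or 5 (-0.015), Cyp2u1 without the 3 libraries (-0.080) and Cyp4f14 without Thrb-KO replicate 2 (-0.014). Leaving out 1 mouse, their log2 fold changes ranged from -0.032 to 0.22 for Cyp2e1, -0.068 to 0.065 for Cyp2f2, -0.029 to 0.069 for Cyp2j5 and -0.014 to 0.18 for Cyp4f14. The log2 differences of the family sums moved by less than their spread.

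With a replicate block for the numbers in the titles, 7 members were called, Cyp2c67 being lost (edgeR adjusted p = 0.19) and Cyp4a14 gained, and 348 genes in all. Mice of the same number did not deviate together (correlations of -0.20 to 0.0091). These correlations gave no sign of a pairing by number but are too few to exclude one.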

Other observations

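Some members too low to test had uneven reads. Cyp2d12 had 18, 16, 10, 13 and 13 reads in the WT mice and 8, 5, 1, 3 and 9 in the Thrb-KO mice, and was past an adjusted p of 0.15 (edgeR) only when the filter was dropped or replaced by filterByExpr. Cyp1a1, the most inducible AhR target, had 9 to 33 reads and Cyp1b1 9 to 42 reads per library over all 10 mice. These genes were chosen after their counts were seen.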
